A study of Mus musculus with 576 samples.

Results

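Hlf-positive haematopoietic stem cells (HSCs) from lipopolysaccharide (LPS) treated mouse marrow were compared with cells of the same sort that had no Hlf read. The cells were chosen by Hlf itself: a cell of the LPS p27 high or p27 low class counted as Hlf-positive when Hlf had 20 CPM or more (reads per 1000000 gene reads). Both groups were limited to cells in which gene reads came to 50000 or more and 1000 or more genes were detected. Of 183 such cells, out of 192 sequenced in these groups, 72 were Hlf-positive, 66 had no Hlf read and 45 lay between. The p27 high class held 52 Hlf-positive, 27 no-Hlf and 14 in-between cells. The p27 low class held 20 Hlf-positive, 39 no-Hlf and 31 in-between cells. The series as a whole had 576 cells in 6 groups of 96, of which 547 passed the same limits.

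Each library was 1 cell, sorted from femur and tibia marrow on CD150, CD48, cKit and Sca1, from LPS or control marrow, and a p27 marker set its class as high, low or negative. The p27 high and p27 low classes are called quiescent cells here. Strain, genotype, age and sex, the LPS dose and time, and the number of animals are not stated in the labels, so each group counts as 1 sample, no test was made and no p-value is given. Intervals in brackets are exact 95% intervals that cover counting error only, Poisson for CPM and Clopper-Pearson for shares. The control cells under the same rule were 121 Hlf-positive and 25 no-Hlf cells, with 31 between.

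Hlf is a PAR bZIP transcription factor, a small family that also holds Dbp and Tef and binds the D-box, a motif that the repressor Nfil3 shares. In marrow Hlf is known as a gene of stem cells that is shut down as they enter the blood lineages. LPS is a bacterial cell wall component sensed through Toll-like receptor 4, which switches on NF-kB target genes and, through interferons, a broad set of antiviral and guanylate-binding genes. p27, encoded by Cdkn1b, is a cyclin-dependent kinase inhibitor of resting cells.

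The promoter windows of 3 genes on which the results turn are shown because they carry the letters of known response elements. Each is 300 bases, 250 before and 50 after the start site, from RefSeq on GRCm38.p6, written 5′ to 3′ on the strand of the gene. In the Hlf window (chr11:90390868-90391167, minus strand) the capitals mark TGACGTCA, the cAMP response element. In the windows of Ifit3 (chr19:34583279-34583578, plus strand), an interferon-induced antiviral gene, and of Ncf1 (chr5:134229576-134229875, minus strand), a subunit of the phagocyte NADPH oxidase, they mark GAAANNGAAA on either strand, the core of the interferon-stimulated response element.
Hlf: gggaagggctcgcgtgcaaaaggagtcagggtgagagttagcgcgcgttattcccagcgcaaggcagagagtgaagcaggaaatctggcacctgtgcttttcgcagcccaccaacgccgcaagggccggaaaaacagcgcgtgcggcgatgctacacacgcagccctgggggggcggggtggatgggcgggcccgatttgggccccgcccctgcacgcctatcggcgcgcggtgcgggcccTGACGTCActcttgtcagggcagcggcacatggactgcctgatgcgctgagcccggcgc
Ifit3: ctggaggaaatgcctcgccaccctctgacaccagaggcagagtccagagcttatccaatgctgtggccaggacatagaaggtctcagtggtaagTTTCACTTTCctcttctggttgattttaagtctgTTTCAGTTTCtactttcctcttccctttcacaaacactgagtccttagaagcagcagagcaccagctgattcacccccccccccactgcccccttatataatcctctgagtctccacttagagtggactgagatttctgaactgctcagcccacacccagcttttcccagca
Ncf1: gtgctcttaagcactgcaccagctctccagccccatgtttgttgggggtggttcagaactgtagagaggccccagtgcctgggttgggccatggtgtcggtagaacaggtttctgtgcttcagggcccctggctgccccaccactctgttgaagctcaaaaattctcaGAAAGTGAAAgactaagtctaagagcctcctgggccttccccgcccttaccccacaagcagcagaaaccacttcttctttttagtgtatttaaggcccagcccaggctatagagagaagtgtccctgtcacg
The response element core was in 3.44% of all 32851 promoter windows, TGACGTCA in 1.79% and the D-box TTACGTAA in 0.119%, both strands searched. With the first listed window of each gene, the core was in 17 of 32 windows of the interferon list below. It was in 2 of the 8 windows of the 12 genes ranked lowest in Hlf-positive cells, those of Ifit3 and Ncf1 shown here. It was in none of the 11 windows of the 12 genes ranked highest. None of those 11 windows, nor of the 16 windows of PAR bZIP and clock genes, held the D-box, which says only that these letters are not in these windows.

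The Hlf level spanned the whole range within the Hlf-positive cells, with a lowest of 20.7, a median of 181 and a highest of 992 CPM. The cells just inside the limit had 20.7, 21.6 and 22.6 CPM, and those just outside had 19.8, 18.8 and 17.9 CPM. Of the 72 Hlf-positive cells 65 had at least 10 Hlf reads and 1 had fewer than 5. Of the 66 no-Hlf cells 54 were deep enough that 3 reads would have stood under 20 CPM. The other 12 were shallower, so an Hlf level near the limit could more easily have been missed in them. Depth was alike: Hlf-positive cells had 77829 to 1528164 gene reads with a median of 279077, and no-Hlf cells 67389 to 1108842 with a median of 287584. Thinned to 50000 reads, Hlf-positive cells had a median of 4026.5 detected genes and no-Hlf cells 3993.5. The median of gene reads per spike-in read was 21.6 in Hlf-positive cells and 28.6 in no-Hlf cells, and mitochondrially encoded reads had medians of 5.49% and 5.28% in the same order.

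Kit and Ly6a, genes of the sort markers, were read in most cells of both groups. At 50000 reads, Kit, which encodes cKit, was read in 91.7% of Hlf-positive and 77.3% of no-Hlf cells, and Ly6a, which encodes Sca1, in 90.3% and 90.9%. Cd48, absent from the sorted surface phenotype, had 9.44 CPM in Hlf-positive and 4.97 CPM in no-Hlf cells. Slamf1, the gene of CD150, was lower in Hlf-positive cells, with its values given below. Of 16 markers of B, T, NK and myeloid cells, 6, among them Ms4a1, Cd3e, Cd3g, Csf1r and Ngp, had no read in either group, and 2, Cd79b and Nkg7, reached 5 CPM. Their summed level ran over 0 to 1875 CPM in Hlf-positive cells and 0 to 1691 CPM in no-Hlf cells. Of 12 endothelial and stromal markers 5 reached 5 CPM and Cdh5 had no read, with summed levels of 0 to 978 CPM in Hlf-positive and 0 to 1585 CPM in no-Hlf cells. Of 18 erythroid markers 9 reached 5 CPM, among them Gata1, Klf1 and Hbb-bt, and 5 had no read. Their summed level was 162 to 13265 CPM in Hlf-positive cells (median 2374) and 264 to 15244 CPM in no-Hlf cells (median 2413). Of 24 megakaryocyte markers 20 reached 5 CPM.

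The LPS cells carried reads of both sexes, and Hlf-positive and no-Hlf cells differed in them. Xist, the RNA that coats the inactive X chromosome of female cells, had 14.2 CPM (12.8 to 15.8) in Hlf-positive cells and 320 CPM (313 to 328) in no-Hlf cells. Eif2s3y, a Y-linked translation factor gene, had 127 CPM (123 to 131) in Hlf-positive cells and 38 CPM (35.4 to 40.7) in no-Hlf cells. Kdm5d and Uty, Y-linked histone demethylase genes, had 44.1 and 38.8 CPM in Hlf-positive cells, against 0.675 and 1.25 CPM in no-Hlf cells. Cells were therefore sorted by these reads: Y-type cells had at least 20 CPM over Uty, Ddx3y, Eif2s3y and Kdm5d together and less than 20 CPM of Xist, and Xist-type cells the reverse. The labels give no sex, so these are groups defined from the data and not the study's own. Of the 183 LPS cells 82 were Y-type, 77 were Xist-type, 5 were both and 19 neither.

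Among Y-type LPS cells 51 of 82 were Hlf-positive, a share of 62.2% (50.8 to 72.7). Among Xist-type LPS cells 5 of 77 were, a share of 6.49% (2.14 to 14.5). In the p27 high class the shares were 40 of 51 Y-type cells, 78.4%, and 0 of 30 Xist-type cells, where the exact interval reaches up to 11.6%. In the p27 low class they were 11 of 31 Y-type cells, 35.5%, and 5 of 47 Xist-type cells, 10.6%. The Hlf-positive group was thus mostly Y-type and the no-Hlf group, with 47 Xist-type and 15 Y-type cells, mostly Xist-type. Control quiescent cells showed no such gap: 32 of 48 Y-type cells, 66.7% (51.6 to 79.6), and 71 of 104 Xist-type cells, 68.3% (58.4 to 77.1), were Hlf-positive.

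Over all cells of a kind, Hlf had 170 CPM (165 to 175) in Y-type LPS cells, against 197 CPM (189 to 204) in Y-type control cells. It had 9.27 CPM (8.15 to 10.5) in Xist-type LPS cells, against 187 CPM (182 to 192) in Xist-type control cells. By class, Y-type p27 high cells had 245 CPM (238 to 252) with LPS and 262 CPM (251.1 to 273) in control. Y-type p27 low cells had 37.5 CPM (33.7 to 41.5) with LPS and 74.1 CPM (66.4 to 82.4) in control, and 35.5% of them with LPS and 57.9% in control were Hlf-positive. The CPM intervals met in the p27 high class and lay apart in the p27 low class. The intervals of the p27 low shares overlapped, at 19.2 to 54.6 with LPS and 33.5 to 79.7 in control. Of Y-type p27 high cells 78.4% (64.7 to 88.7) with LPS and 72.4% (52.8 to 87.3) in control were Hlf-positive. The 5 Xist-type cells that kept Hlf were all p27 low, with Hlf at 200, 172, 127, 72.5 and 49.6 CPM. LPS p27 negative cells, which the rule did not use, split alike: 29 of 40 Y-type cells, 72.5% (56.1 to 85.4), and 1 of 46 Xist-type cells, 2.17% (0.0550 to 11.5), were Hlf-positive. In control p27 negative cells the shares were 18 of 27 Y-type cells, 66.7% (46 to 83.5), and 25 of 61 Xist-type cells, 41% (28.6 to 54.3). Whether sex, animal, plate or exposure to LPS separates the Y-type and Xist-type LPS cells cannot be told apart with these labels.

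**Figure D1:**
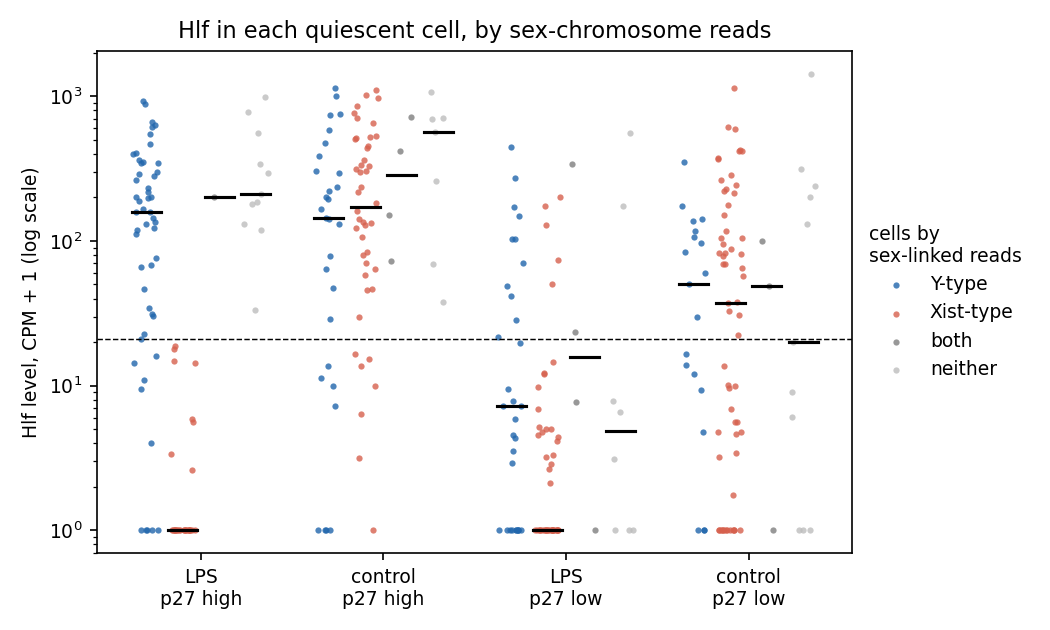
Hlf in each kept quiescent cell, as CPM plus 1 on a log scale, for LPS and control cells of the p27 high and p27 low classes, split by sex-linked reads; black bars are medians and the dashed line is the 20 CPM limit. No Xist-type LPS p27 high cell (0 of 30) lies above the line, against 40 of 51 Y-type LPS p27 high cells.

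By p27 class, without regard to sex-linked reads, 55.9% (45.2 to 66.2) of LPS p27 high cells were Hlf-positive, against 82.1% (72.3 to 89.6) of control p27 high cells. For p27 low cells the shares were 22.2% (14.1 to 32.2) with LPS and 55.9% (45.2 to 66.2) in control, and for p27 negative cells 35.9% (26.1 to 46.5) with LPS and 51.6% (41.1 to 62) in control. Summed Hlf was ordered p27 high, negative, low under LPS, at 171, 53.7 and 27.8 CPM, and high, low, negative in control, at 273, 164 and 93.2 CPM. The intervals of neighbours in either order did not touch, but they leave out any spread between animals.

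Interferon-induced genes separated the same cells. The summed level of the 43 measured members of the interferon list ran from 1405 to 47828 CPM in Hlf-positive cells with a median of 3253, and from 1195 to 131684 CPM in no-Hlf cells with a median of 37169. The level fell into a high and a low range with few cells near 10000 CPM. Above that mark were 6 of 72 Hlf-positive cells, 48 of 66 no-Hlf cells and 26 of the 45 in-between cells. Every one of the 82 Y-type LPS cells was below it, between 887 and 6688 CPM, and 75 of the 77 Xist-type LPS cells were above it. In control cells the median was 2535 CPM, and 2 of 177 cells were above 10000 CPM.

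**Figure D2:**
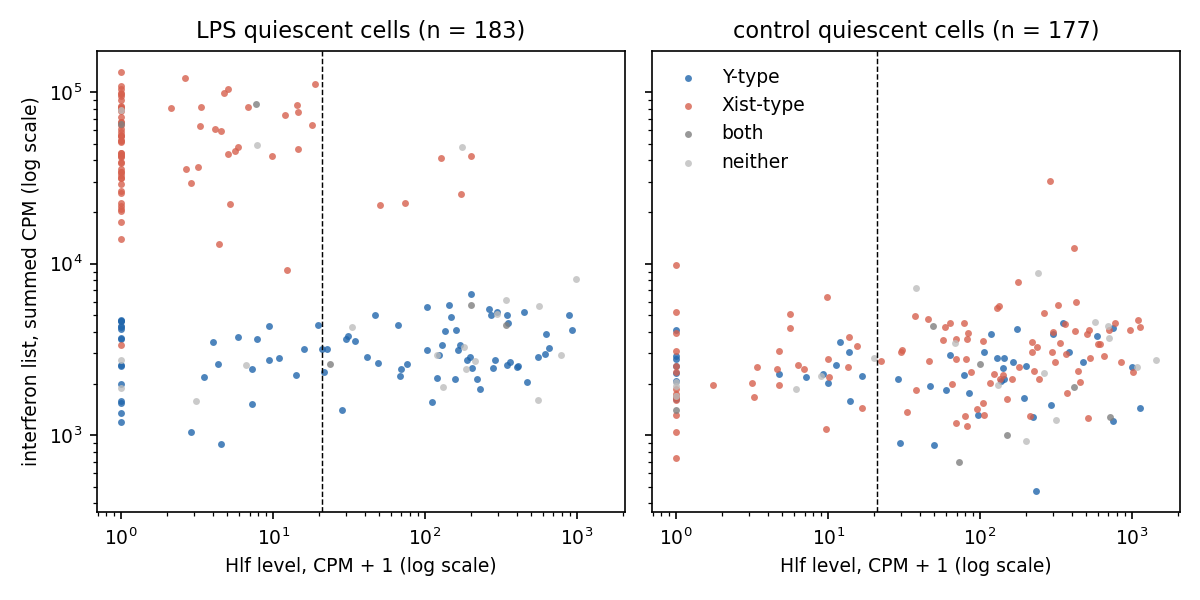
Summed CPM of the interferon list against Hlf level (CPM plus 1) in each LPS and control quiescent cell, both on log scales and coloured by sex-linked reads; the dashed line is the 20 CPM limit. Y-type LPS cells stay between 887 and 6688 CPM at every Hlf level, and 75 of 77 Xist-type LPS cells lie above 10000 CPM.

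In the pooled comparison all 43 interferon genes were lower in Hlf-positive cells, where 36.8% of the 10851 genes measured at 5 CPM or more were lower. Of the 43, 39 were at least 2-fold lower and lower in both p27 classes, against 7.22% of all measured genes. The median log2 fold, Hlf-positive over no-Hlf and computed on summed CPM plus 1, was -2.86, beside 0.23 for all measured genes. It was -3.76 in the p27 high class and -1.30 in the p27 low class. Cxcl9, a chemokine induced by interferon gamma, ran over 0 to 309 CPM in Hlf-positive cells (median 6.36) and 0 to 10288 CPM in no-Hlf cells (median 14). Its summed level was 10.2 CPM in Hlf-positive and 666 CPM in no-Hlf cells, a log2 fold of -5.90. Ifit3 had 7.92 and 480 CPM (-5.75), Ifit2 50.8 and 669 CPM (-3.69), and Gbp4, a guanylate-binding protein gene, 4.0 and 145 CPM (-4.87), each Hlf-positive cells first. Per-cell ranges of all 4 overlapped, since 18 no-Hlf cells had interferon levels at or under 10000 CPM. Ifit3 and Ifit3b are near-identical copies that the counting could split, so the level of either is uncertain.

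Within Y-type LPS cells, 51 Hlf-positive against 15 no-Hlf, the list was not lower. Of the 43 interferon genes 30 were higher, where 55.3% of all measured genes were. At least 2-fold higher were 13 and at least 2-fold lower was 1, against 23.7% and 12.4% of all genes, and the median was 0.64, beside 0.12 for all genes. Cxcl9 had 6.21 CPM in Hlf-positive and 10.4 CPM in no-Hlf Y-type cells, and Ifit3 had 2.02 and 3.08 CPM. Within Xist-type LPS cells, 5 against 47, the median was -0.50, beside -0.41 for all genes. Among these Xist-type cells Cxcl9 had 67.5 CPM in Hlf-positive and 726 CPM in no-Hlf cells (-3.41), and Ifit3 had 54.9 and 625 CPM (-3.48). The per-cell median of the summed list was 25418.5 CPM in the 5 Hlf-positive and 51134 CPM in the 47 no-Hlf Xist-type cells. In control cells the list's median log2 fold was 0.42, beside 0.08 for all genes.

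The NF-kB and inflammatory list, the other arm of the LPS response, followed the same pattern. All 27 measured members were lower in pooled Hlf-positive cells, beside 36.8% of all genes, with a median of -2.08. Of these 20 were at least 2-fold lower there with the same sign in both classes, beside 7.22% of all genes. Lcn2, an iron-sequestering acute phase gene, had 0.88 CPM in Hlf-positive cells and 92 CPM in no-Hlf cells, where 12.1% of cells had it. Nfkb2, a subunit of NF-kB, had 29.2 and 163 CPM, Socs1, a feedback inhibitor of cytokine signalling, 12.8 and 60.03 CPM, and Ptgs2, a prostaglandin synthase, 0.24 and 43.5 CPM. In Y-type cells the median was 0.07 with 15 of 27 higher, beside 55.3% of all genes, and in control cells the median was 0.00. Over all cells the summed level of the list was 3676 CPM in Y-type and 37338 CPM in Xist-type LPS cells, against 3373 and 2911 CPM in control cells of the same types. Of 12 antigen presentation genes 8 were lower in the pooled cells, beside 36.8% of all genes. Among them was Cd74, the class II invariant chain, at 146 CPM in Hlf-positive and 930 CPM in no-Hlf cells. In Y-type LPS cells 9 of the 12 were higher and 3 lower, beside 55.3% of all genes higher, with a median of 0.36. Cd74 was among the higher genes there.

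Genes of long-term HSCs were higher in Hlf-positive cells, and part of this was also seen in Y-type LPS cells and in control cells. Of 40 measured long-term HSC genes 31 were higher, beside 63.2% of all genes, and 15 were at least 2-fold higher in the pooled cells with the same sign in both classes, beside 14.4% of all genes. The median was 1.07 pooled, 1.11 in p27 high and 0.42 in p27 low cells. In Y-type LPS cells it was 0.51 with 27 of 40 higher, beside 55.3% of all genes. In control cells it was 0.86 over the same 40 genes, and 33 of the 41 measured in control were higher, beside 54.5% of all genes. In Xist-type control cells it was 1.33 with 31 of 40 higher, beside 55.6% of all genes. In the 5 Xist-type Hlf-positive LPS cells it was -0.92. The list's summed level was nearly equal, 10127 CPM in Hlf-positive and 9586 CPM in no-Hlf cells, with Ly6a, its interferon-inducible member, lower in Hlf-positive cells.

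Lhcgr, the luteinizing hormone receptor (chr17:88716481-88791990, minus strand, GRCm38), was the highest-ranked gene. It ran from 0 to 1221 CPM in Hlf-positive cells (median 6.74) and from 0 to 189 CPM in no-Hlf cells (median 0). The summed level was 126 CPM (122 to 131) in Hlf-positive and 5.69 CPM (4.71 to 6.81) in no-Hlf cells, with reads in 40.3% (28.9 to 52.5) and 9.09% (3.41 to 18.7) of thinned cells. The log2 fold was 4.25 pooled, 2.77 in Y-type LPS cells and 3.11 in control cells. In Y-type no-Hlf cells 98.2% of its 56 reads came from 1 cell. High Lhcgr was thus a feature of some Hlf-positive cells, not of the group as a whole.

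Clec1a, a C-type lectin receptor, had 746 reads in Hlf-positive cells and 3 in no-Hlf cells, or 29.8 and 0.14 CPM, a ratio of 206 (70.3 to 1003). In Y-type cells it had 678 and 2 reads, a ratio of 64.3 (17.7 to 532), and in control cells 31 CPM in Hlf-positive and 0.96 CPM in no-Hlf cells. It was read in 12.5% of Hlf-positive cells. Procr, the endothelial protein C receptor and a surface marker of long-term HSCs, had 106 CPM in Hlf-positive and 22.7 CPM in no-Hlf cells (log2 fold 2.18), with 1.04 in Y-type and 2.91 in control cells. In Y-type cells the sign of Procr differed by class, -0.35 in p27 high and 3.46 in p27 low cells. Sult1a1, a sulfotransferase gene, had 331 and 105 CPM (1.64), with 2.09 in Y-type and 1.72 in control cells. Mllt3, which maintains HSC transcription, ran from 0 to 1428 CPM in Hlf-positive cells (median 46.9) and from 0 to 1392 CPM in no-Hlf cells (median 2.65). Its log2 fold was 2.51 pooled, 1.43 in Y-type and 0.75 in control cells. These 5 genes were higher in Hlf-positive cells in the pooled, Y-type and control comparisons.

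Other HSC genes had a smaller difference, or none, in Y-type LPS cells or in control cells. Meis1, a homeobox factor, had 495 CPM in Hlf-positive cells and 220 CPM in no-Hlf cells (1.16), but 575 and 669 CPM in Y-type cells (-0.22). Over all cells it had 609 CPM in Y-type and 96.2 CPM in Xist-type LPS cells, against 538 and 486 CPM in control cells of these types. Cd34, a marker of progenitors and some HSCs, had log2 folds of 1.16 pooled, 0.51 in Y-type and -0.08 in control cells, and in the same order Prdm16 had 2.27, 0.10 and 0.94, Fgd5 2.68, 0.83 and 0.14, and Kit 0.80, -0.27 and -0.37. Meg3, an imprinted non-coding RNA, had 17.6 CPM in Hlf-positive and 0.58 CPM in no-Hlf cells, with 2.76 in Y-type and -0.27 in control cells. Gata2 had 363 and 256 CPM (0.50) and -0.78 in Y-type cells. Mecom, which encodes a zinc finger factor of HSC self-renewal, had opposite signs by class, -0.50 in p27 high and 2.45 in p27 low cells.

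The stem cell transcription factor list gave the same contrast between comparisons. Of its 31 measured genes 27 were higher in pooled Hlf-positive cells, beside 63.2% of all genes, with a median of 0.93. At least 2-fold higher there with the same sign in both classes were 10, beside 14.4% of all genes. In Y-type cells 18 of 31 were higher with a median of 0.10, beside 55.3% of all genes. In control cells 21 of 31 were higher with a median of 0.48, beside 54.5% of all genes. Its summed level was 5238 CPM in Y-type and 2628 CPM in Xist-type LPS cells, against 4822 and 4896 CPM in control cells of the same types. Ly6a ran from 0 to 2959 CPM in Hlf-positive cells (median 257) and from 0 to 6588 CPM in no-Hlf cells (median 1033), a log2 fold of -1.66. It was 0.49 in Y-type and 1.28 in control cells. Slamf1, which encodes CD150, had 55.3 CPM in Hlf-positive and 94.6 CPM in no-Hlf cells (-0.76).

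**Figure D3:**
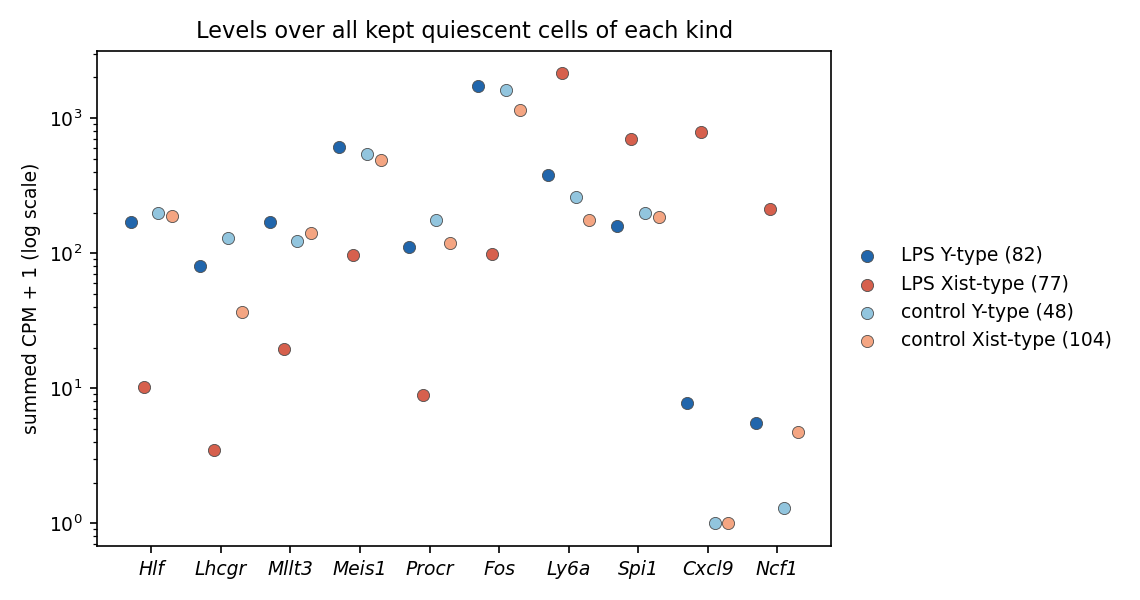
Summed CPM plus 1, on a log scale, of 10 genes over all kept Y-type and Xist-type quiescent cells with LPS and in control. The Xist-type LPS cells stand apart for each of them: Hlf is at 9.27 CPM there, against 170 CPM in Y-type LPS cells and 187 CPM in Xist-type control cells, while Cxcl9 and Ncf1 are at 786 and 213 CPM.

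The PAR bZIP and clock list had 10 of 17 measured genes higher, beside 63.2% of all measured genes, with a median of 0.47 pooled, 0.07 in Y-type and 0.55 in control cells. Dbp had 14 CPM in Hlf-positive and 2.41 CPM in no-Hlf cells (2.13), with 1.71 in Y-type and 0.52 in control cells. Tef had 26 and 25.4 CPM (0.03), with opposite signs in the 2 classes. Nfil3, the repressor that binds the same motif, had 1.44 CPM in Hlf-positive and 17.9 CPM in no-Hlf cells (-2.96). In cells numbered 65 to 96 its sign was the other way, as given below. Over all cells Nfil3 had 59.4 CPM in Xist-type LPS cells and 1.60 CPM in Y-type LPS cells.

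Genes of DNA synthesis were higher in pooled Hlf-positive cells of the LPS marrow and lower in those of the control marrow. All 30 measured S phase genes were higher with LPS, beside 63.2% of all genes, with a median of 0.84. Of these 10 were at least 2-fold higher in the pooled cells with the same sign in both classes, beside 14.4% of all genes. In control cells 6 of 30 were higher, beside 54.5% of all genes, with a median of -0.51. In Y-type LPS cells 25 of 30 were higher, beside 55.3% of all genes, with a median of 0.48. Gins2, a subunit of the replicative helicase, had 55.1 CPM in Hlf-positive and 11.4 CPM in no-Hlf cells (2.18). The per-cell median of the summed list was nonetheless lower in Hlf-positive cells, 2243 CPM against 2769 CPM in no-Hlf cells, so that a minority of cells carried the higher sum. The summed level was 6008 CPM in Y-type and 3312.5 CPM in Xist-type LPS cells, against 4396 and 4475 CPM in control cells.

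The G2/M list was at a low level throughout: 13 of its members reached 5 CPM, with a per-cell median of the summed list of 205 CPM in Hlf-positive and 104 CPM in no-Hlf cells. Of the 13, 11 were higher, beside 63.2% of all genes. The median was 1.36 pooled and 1.40 in p27 high but 0.01 in p27 low cells. In Y-type cells the median was 1.40 and in control cells 0.84. Mki67, a marker of cycling cells, had 23.4 CPM in Hlf-positive and 9.88 CPM in no-Hlf cells, yet it was read in 25% of Hlf-positive and 36.4% of no-Hlf cells. Among inhibitors, Cdkn1b itself had 99.2 and 90.2 CPM (0.14). Cdkn1c, p57, had 21.2 and 4.48 CPM, with 58.3% of the reads of Hlf-positive cells in 1 cell and opposite signs by class. Cdkn1a, p21, had 22.6 and 65.2 CPM (-1.49), with 1.54 in Y-type cells. Cdk6, which drives exit from quiescence, had 631 and 665 CPM (-0.08), with -0.90 in Y-type and -1.12 in control cells.

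Immediate early genes were higher in pooled Hlf-positive cells for 14 of 19 members, beside 63.2% of all measured genes, with a median of 0.71, but not as a list in Y-type or control cells. Fos ran from 0 to 13222 CPM in Hlf-positive cells (median 478) and from 0 to 7739 CPM in no-Hlf cells (median 14), a log2 fold of 2.75. Egr1 had 547 and 148 CPM (1.88) and Dusp1, a MAP kinase phosphatase gene, 715 and 170 CPM (2.07). In Y-type cells the list's median was -0.02, with 1.14 for Fos, and in control cells it was -0.04, with -0.84 for Fos. Fos had 1728 CPM over Y-type and 97.6 CPM over Xist-type LPS cells, against 1603 and 1140 CPM in control cells. Atf3 went the other way, at 3.76 CPM in Hlf-positive and 117 CPM in no-Hlf cells (-4.63).

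Metabolic lists differed less. Glycolysis genes had a median of 0.63 pooled, with 18 of 23 higher, beside 63.2% of all genes. The median was 0.14 in Y-type and in control cells alike. Within the list, Aldoc, a brain-type aldolase, had 60.1 CPM in Hlf-positive and 13.3 CPM in no-Hlf cells (2.09), with 4.98 in Y-type and 2.38 in control cells, and was read in 18.1% of Hlf-positive cells. Pdk1, an inhibitor of pyruvate dehydrogenase, had 120 and 28.2 CPM (2.05), with 0.42 in Y-type cells. Pfkfb3, an activator of glycolysis, had 44.6 and 218 CPM (-2.26). Oxidative phosphorylation (0.22), ribosome biogenesis (0.17), calcium (0.25) and cytosolic ribosomal protein genes (0.02) had medians near the 0.23 of all genes. Orai3, a subunit of a store-operated calcium channel, had 208 CPM in Hlf-positive and 50.4 CPM in no-Hlf cells (2.02), with 1.19 in Y-type and 0.63 in control cells.

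Lineage genes showed no common direction. The lineage-entry list had a median of 0.19, with 12 of 23 higher, beside 63.2% of all genes. Its members Prtn3, proteinase 3, and Spi1, the myeloid factor PU.1, went opposite ways. Prtn3 ran from 0 to 995 CPM in Hlf-positive cells (median 320) and from 0 to 717 CPM in no-Hlf cells (median 3.56), a log2 fold of 2.47. Spi1 had 166 CPM in Hlf-positive and 566 CPM in no-Hlf cells (-1.76), and over all cells 705 CPM in Xist-type and 159 CPM in Y-type LPS cells. The megakaryocyte list had 8 of 20 higher, beside 63.2% of all genes. Its median was -0.34 pooled, -1.06 in Y-type and -0.94 in control cells. In the p27 high class these medians were of the other sign, 0.39, 1.06 and 0.32 in the same order. In the p27 low class they were -0.19, -0.89 and -1.04. Control cells also differed by type, at 0.69 in Y-type and -1.02 in Xist-type cells. Vwf, von Willebrand factor, a marker of platelet-biased HSCs, had 9.88 CPM in Hlf-positive and 53.6 CPM in no-Hlf cells (-2.33), with -3.81 in Y-type but 0.29 in control cells. Ifngr2, a subunit of the interferon gamma receptor, had 22.3 and 87.9 CPM (-1.93).

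**Figure D4:**
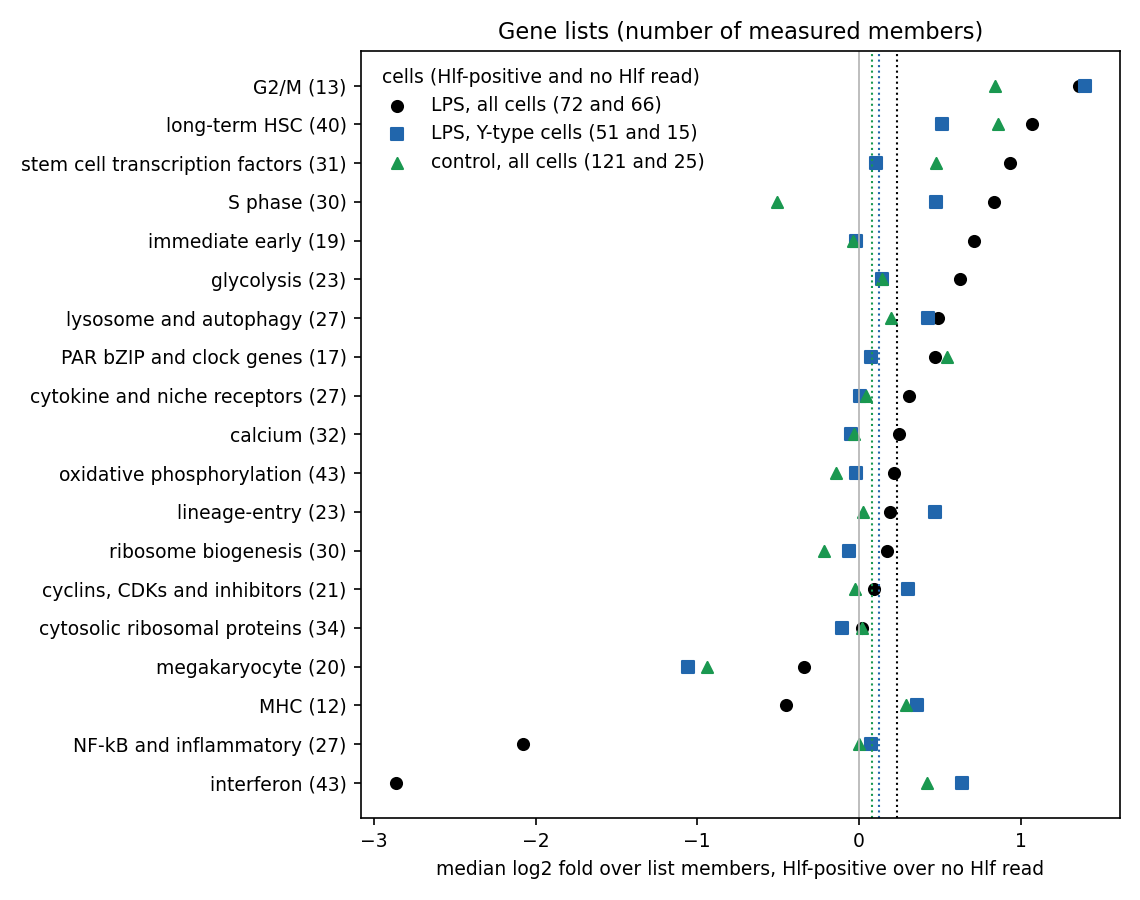
Median log2 fold of each gene list with at least 10 measured members, Hlf-positive over no Hlf read, for all LPS cells, Y-type LPS cells and control cells; dotted lines in the same colours are the medians of all measured genes. The interferon median is -2.86 in all LPS cells, 0.64 in Y-type LPS cells and 0.42 in control cells, while the long-term HSC median is 1.07, 0.51 and 0.86.

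The genes with the largest difference in both classes were ranked without use of the lists. After Lhcgr the higher ones were Idua and Smpd1, lysosomal hydrolases, Tet1, a DNA demethylation enzyme, Naprt, an enzyme of NAD synthesis, Dgka, a diacylglycerol kinase, Shisa8, Vps26b of the retromer, Bivm, Plcl1, Uty and Inafm1. Their pooled log2 folds ran from 2.84 to 4.43. All 12 were also higher in Y-type cells, from 0.51 for Smpd1 to 3.81 for Idua, though this comparison shares its Hlf-positive cells with the pooled one. In control cells, which share no cell, 8 of the 12 were higher, beside 54.5% of all genes. Their median there was 0.22, beside 0.08 for all genes. Naprt had 97.4 CPM in Hlf-positive and 5.93 CPM in no-Hlf cells, with 1.01 in control, and Shisa8 55.8 and 1.64 CPM, with 1.85 in control. Uty is one of the genes that defined the Y-type, and within Y-type LPS cells it had 51.4 CPM in Hlf-positive and 6.15 CPM in no-Hlf cells.

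The 12 lower genes were Cxcl9, Lrrc25, Gbp4, Steap4, a metalloreductase, Sdc4, a cell surface proteoglycan, Ncf1, Pde9a, a cyclic GMP phosphodiesterase, Ackr1, a decoy receptor for chemokines, Ifit3, Rasip1, Gm37975 and Wdr59. Their pooled log2 folds ran from -7.57 to -3.50, and 3 of 12 were lower in control cells, beside 45.5% of all genes. Ncf1 ran from 0 to 253 CPM in Hlf-positive cells (median 0) and from 0 to 2294 CPM in no-Hlf cells (median 3.43), and its summed levels were 4.96 and 199 CPM. Of the Ackr1 reads in no-Hlf cells 81.4% came from 1 cell. In Y-type no-Hlf cells most of these genes were near 0: Ncf1 had 3 reads, Gbp4 3, Rasip1 3, Sdc4 2, Lrrc25 3 and Gm37975 2. Steap4 had 220 CPM over Xist-type and 1.24 CPM over Y-type LPS cells, and no read in Hlf-positive or no-Hlf control cells.

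**Figure D5:**
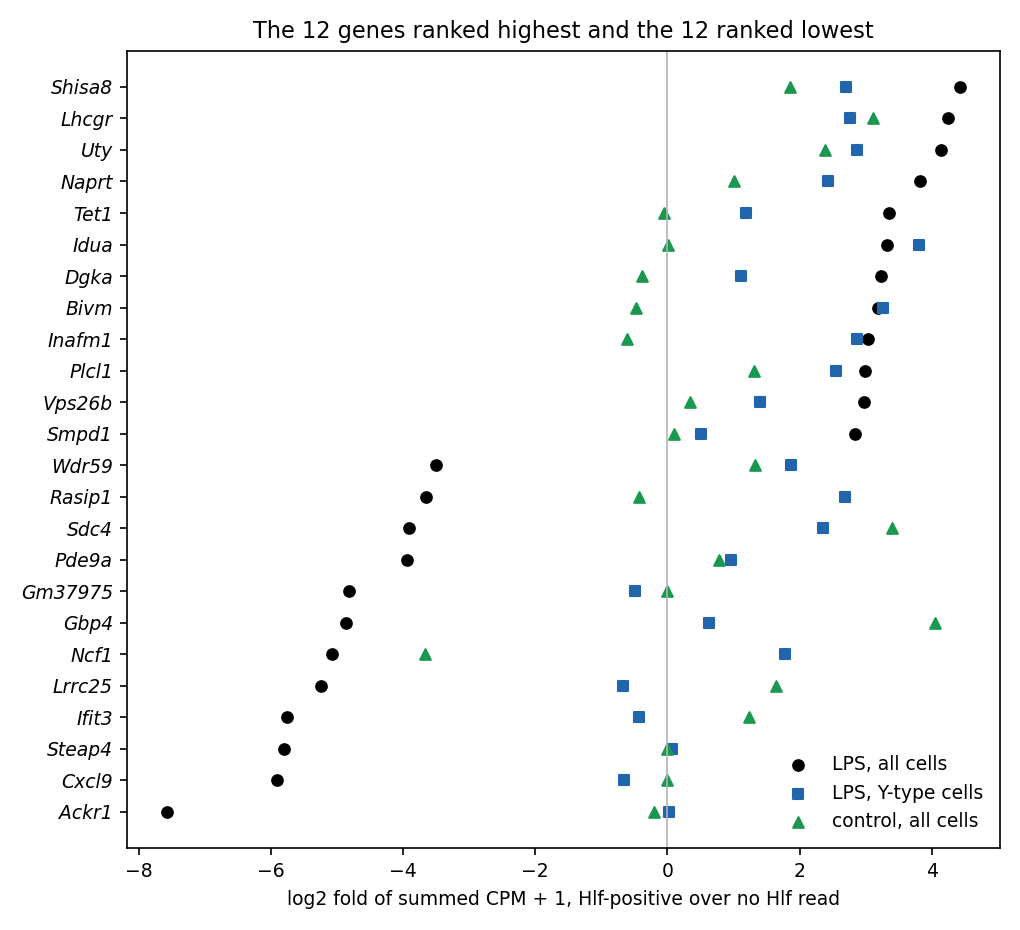
Log2 fold of summed CPM plus 1, Hlf-positive over no Hlf read, of the 24 ranked genes in all LPS cells, Y-type LPS cells and control cells. All 12 genes ranked highest stay above 0 in Y-type cells, and none of the 12 ranked lowest is below -1 there. Ncf1, Gbp4, Rasip1, Sdc4, Lrrc25 and Gm37975 had only 2 or 3 reads in Y-type no-Hlf cells. With 1 CPM added, their folds could not have been below -1.

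Over all measured genes, 1564 were at least 2-fold higher and 783 at least 2-fold lower in pooled Hlf-positive cells with the same sign in both classes. Of the higher ones 85.1% were also higher in Y-type cells, where 55.3% of all measured genes were. Of the lower ones 61.2% were lower there, beside 44.6% of all. The Y-type comparison reuses 51 of the 72 Hlf-positive and 15 of the 66 no-Hlf cells, so these shares are no independent check. In control cells 59.2% of the higher genes that were measured there were higher, beside 54.5% of all genes, and 39.97% of the lower ones were lower, beside 45.5% of all genes.

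The 5 genes whose level per cell was most like that of Hlf, by Spearman rho over the 183 LPS cells, were Prtn3 (0.54), Lmo2 (0.48), Gm19590 (0.47), Tspan4 (0.45) and Adgrl4 (0.45), out of 10851 genes with a median rho of 0.01. The points share library depth and cell type, but Hlf itself had a rho of -0.003 with depth. Within the 82 Y-type cells the values were 0.30, 0.23, 0.38, 0.15 and 0.16 in that order, within the 77 Xist-type cells 0.024, -0.012, -0.034, 0.11 and 0.21, and over the 177 control cells 0.14, 0.17, 0.19, 0.03 and 0.07. Lmo2 had 0.66 in p27 high and 0.10 in p27 low LPS cells. Procr had 0.33 in LPS cells, 0.25 in Y-type LPS cells and 0.40 in control cells. Dbp (0.05) and Tef (0.04) were not like Hlf in this sense. Nfil3 had -0.10 in LPS cells, with -0.22 in p27 high and 0.015 in p27 low cells, and 0.06 in control cells.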

How the data were processed

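Counts of reads per gene, deposited by the authors as raw counts in 2 tables, 1 for LPS and 1 for control, were used as they are. The submitters' processing notes name GSNAP 2015-09-29 and HTSeq 0.6.0 as tools and mm10 as the build, and no annotation release or strand setting was found in the labels. Of all counts 63.8% name no gene and 2.06% name spike-ins, and both were left out. GENCODE M21 (mm10) named 45229 of 46078 gene IDs.

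CPM are reads of a gene summed over the cells of a group per 1000000 gene reads. Log2 folds add 1 CPM. Genes with at least 5 CPM over both groups count as measured. List medians in control cells are over the members measured in LPS cells, some of them under 5 CPM in control. Of the interferon list 35 members, and of the NF-kB list 21, were measured in control. Counts of higher list members over all control cells are over the members measured there. Shares of cells with a gene use cells thinned to 50000 reads. No clustering, doublet removal or limit on mitochondrially encoded reads was applied. Ranked genes had a read in at least 20% of the cells of the higher group and the same sign in both p27 classes, in summed and per-cell values, ordered by the smaller class fold, 12 each way, Hlf left out. Up to 4 members of each of 23 gene lists and fixed genes were added, of which those named were picked after their values were seen. Members and lists were chosen with earlier results of these data known, and the split by sex-linked reads was added after seeing the data. Depth per cell sets the precision; intervals cover counting error only.

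Python 3.11.15, pandas 2.3.3, scipy 1.17.1, and edgeR 4.0.16 for TMM factors in 1 alternative, were used. Results on some genes are not reported here. The fold procedure was tested on simulated data.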

Additional observations from a re-analysis of the deposited data

Results flagged for a closer look

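The interferon list differed between treatments. Its median log2 fold, Hlf-positive over no-Hlf, was -2.86 in LPS cells (-3.76 in p27 high, -1.30 in p27 low) and 0.42 in control cells (0.50 in p27 high, 0.49 in p27 low). The medians of all measured genes were 0.34 in p27 high and 0.05 in p27 low LPS cells and 0.48 in p27 high and 0.08 in p27 low control cells, so the control p27 high value lay near that of all genes. The difference was not tested. In Y-type LPS cells the median was 0.64.

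The S phase list was of opposite sign in the same way, with a median of 0.84 in LPS cells (0.94 in p27 high, 0.21 in p27 low) and -0.51 in control cells (-0.66 in p27 high, -0.48 in p27 low). This difference was not tested either.

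LPS p27 negative cells, which the comparison did not use, held a signal above control: the median summed interferon level was 45669 CPM in their 46 Xist-type cells, against 2187 CPM in the 61 Xist-type control p27 negative cells. It was 2514 CPM in the 40 Y-type LPS p27 negative cells, against 2236.5 CPM in 27 Y-type control p27 negative cells. The part of sex, animal or treatment in this was not tested.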

How the results depend on the processing

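The cells' sex-linked reads, an alternative added after seeing the data, changed most. In Y-type cells the interferon median turned to 0.64, the long-term HSC median moved to 0.51 and the megakaryocyte median to -1.06. In the 5 and 47 Xist-type cells the long-term HSC and G2/M medians turned to -0.92 and -1.12, and the interferon and megakaryocyte medians were -0.50 and 0.39. The Hlf-positive share was 78.4% (Y-type) and 0% (Xist-type) of p27 high cells, and 35.5% and 10.6% of p27 low cells. Called genes were at least 2-fold apart in the pooled cells with the same sign in both classes. Those that turned sign in Y-type cells, on the log2 scale with 1 CPM added and for several from few reads, were Gbp4 (0.64), Steap4 (0.068), Sdc4 (2.36), Ncf1 (1.78), Pde9a (0.97), Ackr1 (0.020), Rasip1 (2.69), Wdr59 (1.87), Meis1 (-0.22), Ly6a (0.49), Lcn2 (0.29), Ptgs2 (0.075), Nfkb2 (1.75), Socs1 (0.41), Cd74 (4.60), Spi1 (0.48), Pfkfb3 (0.71) and Cdkn1a (1.54). Genes that were not called are not in this list, though some of them, such as Gata2 and Kit, also turned sign in Y-type cells. Counts of genes at least 2-fold higher or lower were 1564 and 783; with genes of 20 CPM or more they were 922 and 460, with any read 1230 were lower, and the long-term HSC median was 0.46 at 20 CPM or more. By p27 class, the interferon median was -3.76 (high) and -1.30 (low), the megakaryocyte median 0.39 (high), and the long-term HSC and G2/M medians 0.42 and 0.010 (low). In cells numbered 1 to 32, 1325 genes were lower. In cells 33 to 64 the megakaryocyte and ribosome biogenesis medians were -1.18 and -0.33, with Ifngr2 at 0.57 and Aldoc at -0.48. In cells 65 to 96, 1288 genes were lower, and the long-term HSC, lineage-entry, G2/M and interferon medians were 0.52, -1.24, 0.72 and -3.58, with Uty at -0.94, Nfil3 at 1.30 and Ptgs2 at 0.11. Against all cells under 20 CPM of Hlf, Mki67 was at -0.14. The causes were not tested. TMM factors shifted the median of all genes by -0.10. Over 66 named genes and 18 settings, 989 values moved by less than 1 SD of the 3 parts by cell number and 175 by more without a turn of a called sign. The settings of genes with any read and of genes at 20 CPM or more leave the fold of a named gene unchanged. All 66 values of each were therefore bound to stay the same, and the 3 parts that set the SD are among the 18 settings. No paired analysis was possible because cell numbers name single cells, not pairs, and no result comes from a test.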
